A study of Homo sapiens with 21 samples.

Results

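The proteasome members were the protein-coding genes whose symbols begin PSMA, PSMB, PSMC, PSMD, PSME, PSMF or PSMG followed by a digit. They numbered 49 of the 54042 genes in the count table, and PSMB8, PSMB9, PSMB10, PSME1 and PSME2 formed the interferon-linked class of 5. After the filter on low counts, 46 members, 4 of them interferon-linked, were among the 11610 genes tested. The cells were MV4-11, a human B myelomonocytic leukaemia line, either wild type (WT) or with a CRISPR knockout (KO) of HK2, which encodes hexokinase 2, or of PGP, which encodes phosphoglycolate phosphatase. The 7 groups of 3 libraries were HK2 KO cells with ironomycin (AM5) for 24 h, HK2 KO cells with DMSO, PGP KO cells with ironomycin for 24 h, PGP KO cells with DMSO, WT cells with ironomycin for 6 h, WT cells with ironomycin for 24 h, and WT cells with DMSO. Ironomycin is a small molecule derived from salinomycin that holds iron in lysosomes, and DMSO is its solvent. The labels give no time for the DMSO cells, no dose, and no word on whether a knockout line is 1 clone or a pool.

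The proteasome is the protease that degrades proteins tagged with ubiquitin. Its barrel-shaped 20S core is built of alpha (PSMA) and beta (PSMB) subunits, and the 19S cap that recognises and unfolds substrates is built of ATPases (PSMC) and non-ATPase subunits (PSMD). Interferon induces PSMB8, PSMB9 and PSMB10, which take the places of the catalytic subunits PSMB5, PSMB6 and PSMB7 in newly built cores, and PSME1 and PSME2, which form the PA28 activator; this immunoproteasome cuts peptides for presentation on class I HLA molecules and is common in blood cells.

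The libraries were 3′ tag libraries (Lexogen QuantSeq), in which each read stands for the 3′ end of a transcript, and the values are counts per gene. Totals ran between 3829274 and 6069264 counts per library, with a median of 4823817. HK2 had 24.8, 21.2 and 19.99 CPM (counts scaled to library size, with TMM factors) in HK2 KO cells with DMSO and 42.4 to 69.5 CPM in WT cells with DMSO. PGP had 71.0 to 83.6 CPM in PGP KO cells with DMSO and 86.8 to 95.5 CPM in WT cells with DMSO. Neither knockout group overlapped WT, but neither HK2 nor PGP was called. Against WT cells with DMSO, 0 of 11610 genes tested were called lower in HK2 KO cells and 0 in PGP KO cells (edgeR). A 3′ tag outside the edited stretch does not check an edit. Of 10 blood and leukaemia markers, 7 passed the filter, among them HOXA9, FLT3 and CD33, while CD14 had at most 4 counts in a group. Of 10 markers of other cell types, 4 were at 0 in all 21 libraries (EPCAM, KRT18, HBA1 and PECAM1), and all 10 summed to between 4.16 and 18.1 CPM per library. KRT8, an epithelial keratin, was called higher in WT cells at 24 h (10.3 ± 1.25 CPM, against 5.35 ± 1.27 CPM with DMSO, SD, n = 3 each; edgeR adjusted p = 0.019). Of the blood markers, MPO was called lower at 24 h in HK2 KO (-1.10), PGP KO (-1.54) and WT cells (-1.18), and PTPRC higher in HK2 KO cells (0.52), PGP KO cells (0.74) and WT cells at 6 h (1.12) and 24 h (0.52), as log2 fold changes in edgeR. The part of these markers in the proteasome results was not tested. Replicate 2 of the WT 6 h group stood apart. Over all genes tested, the SD of its log2 deviation from the mean of the other replicates of its group was 0.675. In the other libraries this SD was 0.332 to 0.480. Where leaving out replicate 2 lost the 6 h call of a gene named here, the change and adjusted p without it are given. Members that gained a call without it are named. Whether replicates came from separate cultures is not in the labels; the spread behind each p-value is that between these libraries and may be technical. In bulk samples, fewer cells of a type and less RNA per cell cannot be told apart.

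The upstream sequences of the interferon-linked class and of TAP1 are shown because the class is defined by its induction by interferon, and because TAP1, the peptide transporter gene that lies head to head with PSMB9, is compared with it here. PSMD12, a subunit of the 19S lid, is shown as a constitutive member. Each sequence is the 250 bases before an annotated start, 5′ to 3′ on the gene's own strand, from RefSeq on GRCh38.p14, a build other than the hg19 of the counts. Capitals mark matches, on either strand, to the interferon-stimulated response element (a pair of GAAA half-sites 2 bases apart), the STAT site GAS (TTCNNNGAA), the NF-κB consensus and the antioxidant response element (TGACNNNGC or TGAGNNNGC).
PSMB8, chr6:32844680-32844929, minus strand: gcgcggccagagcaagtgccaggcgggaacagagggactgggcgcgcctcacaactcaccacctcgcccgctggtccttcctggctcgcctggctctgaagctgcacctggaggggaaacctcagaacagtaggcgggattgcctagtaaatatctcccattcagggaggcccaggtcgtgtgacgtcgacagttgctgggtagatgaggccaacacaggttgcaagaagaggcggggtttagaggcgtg
PSMB8, second start, chr6:32844048-32844297, minus strand: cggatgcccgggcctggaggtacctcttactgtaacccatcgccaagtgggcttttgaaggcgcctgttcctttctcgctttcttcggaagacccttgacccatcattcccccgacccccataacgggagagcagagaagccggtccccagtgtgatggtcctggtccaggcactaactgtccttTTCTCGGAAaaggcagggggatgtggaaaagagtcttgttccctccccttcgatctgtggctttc
PSMB9, chr6:32853942-32854191, plus strand: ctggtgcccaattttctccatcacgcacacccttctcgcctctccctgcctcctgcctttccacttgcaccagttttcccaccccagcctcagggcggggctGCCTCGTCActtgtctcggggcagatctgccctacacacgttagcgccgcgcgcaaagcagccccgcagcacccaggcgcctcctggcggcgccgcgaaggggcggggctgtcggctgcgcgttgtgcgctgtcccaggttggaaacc
TAP1, chr6:32853705-32853954, minus strand: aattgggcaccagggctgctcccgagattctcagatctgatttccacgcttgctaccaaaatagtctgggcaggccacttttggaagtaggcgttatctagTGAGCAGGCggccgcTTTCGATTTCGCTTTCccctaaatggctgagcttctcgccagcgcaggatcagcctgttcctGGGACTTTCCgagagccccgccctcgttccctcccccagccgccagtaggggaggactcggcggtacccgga
PSMB10, chr16:67936851-67937100, minus strand: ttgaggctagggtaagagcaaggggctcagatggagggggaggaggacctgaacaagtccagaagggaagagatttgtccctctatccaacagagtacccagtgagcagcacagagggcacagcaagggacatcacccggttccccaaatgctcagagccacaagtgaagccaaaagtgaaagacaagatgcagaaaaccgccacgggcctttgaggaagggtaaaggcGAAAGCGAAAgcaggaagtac
PSME1, chr14:24135944-24136193, plus strand: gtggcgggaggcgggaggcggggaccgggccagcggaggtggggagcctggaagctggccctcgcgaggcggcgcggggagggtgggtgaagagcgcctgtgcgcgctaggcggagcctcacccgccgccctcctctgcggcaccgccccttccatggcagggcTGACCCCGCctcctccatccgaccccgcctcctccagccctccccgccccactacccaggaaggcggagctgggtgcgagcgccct
PSME2, chr14:24146611-24146860, minus strand: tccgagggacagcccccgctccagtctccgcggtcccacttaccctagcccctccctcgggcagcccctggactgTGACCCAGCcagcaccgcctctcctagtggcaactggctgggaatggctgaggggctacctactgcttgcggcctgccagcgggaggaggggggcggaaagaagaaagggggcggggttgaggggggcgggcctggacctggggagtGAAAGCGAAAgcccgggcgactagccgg
PSMD12, chr17:67366578-67366827, minus strand: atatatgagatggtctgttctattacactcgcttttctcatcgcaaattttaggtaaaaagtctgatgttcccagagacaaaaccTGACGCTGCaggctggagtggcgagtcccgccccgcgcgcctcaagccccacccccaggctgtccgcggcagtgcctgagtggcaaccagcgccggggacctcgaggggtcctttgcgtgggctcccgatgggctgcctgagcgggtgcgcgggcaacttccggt

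In these windows the interferon-stimulated response element lies close before the starts of PSME2 and PSMB10, and the TAP1 window holds 2 overlapping matches to it and the NF-κB match. The windows of PSMB9 and TAP1 overlap at their far ends. A second annotated TAP1 start, whose window is not printed (chr6:32852762-32853011, minus strand), has a GAS match. Over 43 members with an upstream window, 5 held the interferon-stimulated response element (PSMA4, PSMB4, PSMB10, PSME2 and PSMG4), or 11.6%, against 3.63% of all 15037 genes with a window. GAS matches stood in 7 members, or 16.3%, against 7.95% of all genes. The NF-κB consensus stood in 0 members, against 0.23% of all genes. Antioxidant response element letters stood in 18 members, or 41.9%, against 31.3% of all genes. These matches describe letters in a window and not bound sites.

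After 24 h of ironomycin, members of the core, the cap, the activators and the assembly chaperones were called lower in WT cells, and none was called higher. In WT cells at 24 h, 26 of 46 tested members were called lower and 0 higher than in DMSO at an adjusted p under 0.05 (edgeR quasi-likelihood test), where 29.8% of all genes tested were called, 14.6% lower and 15.3% higher. The members' median log2 fold change was -0.39 and 41 lay below zero, against a median of 0.03 over all genes tested. By DESeq2 the count was also 26. Leaving out each library in turn gave 20 to 23 calls, and 13 members were called in every one of those fits: PSMA7, PSMB2, PSMB5, PSMB6, PSMB8, PSMD1, PSMD2, PSMD3, PSMD12, PSMD14, PSME2, PSME3 and PSMG4. The share of all genes tested that were called in every such fit was not counted.

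In WT cells at 6 h, 13 of 46 members were called lower and 1, PSMD4, higher than in DMSO, where 22.0% of all genes tested were called, 11.1% lower and 10.9% higher (edgeR). The median log2 fold change of the members was -0.22, against 0.02 over all genes tested. Without replicate 2 of the 6 h group 11 members were called; PSMC6, PSMB2, PSMD4, PSMD6 and PSMG1 were lost, and PSME2 and PSMA7 were gained. Of 11795 genes tested in that fit, 1035 were called higher and 1110 lower. Fitting the 6 h and DMSO groups alone, with a spread estimated from 6 libraries, called 6 members, and PSMA3, PSMB2, PSMB8, PSMC6, PSMD4, PSMD6, PSMD11 and PSMG1 were lost (edgeR adjusted p between 0.0548 and 0.161). Calls fell over all genes too: 636 of 10674 genes tested were higher and 576 lower, against 1271 and 1285 of 11610 with all groups. Between the times, 6 of 46 members were called lower at 24 h than at 6 h and 0 higher, where 16.6% of all genes tested were called, 8.08% lower and 8.48% higher (edgeR). These 6 were PSMB6, PSMC3, PSMC5, PSMD2, PSMD13 and PSME3IP1. When those groups were fitted alone, PSMD2 was the 1 member called, and 377 of 10896 genes tested were called higher and 372 lower. Leaving out libraries gave 3 calls without replicate 3 of the 24 h group and 15 without replicate 3 of the 6 h group. Of all genes tested, 623 were called higher and 648 lower in the first of these fits, and 1081 and 1139 in the second. The fit without replicate 2 of the 6 h group called 4 members, with PSMC5, PSMD13 and PSME3IP1 lost and PSMD14 gained. Of 11795 genes tested there, 836 were called higher and 764 lower. The 2 times share the WT DMSO libraries.

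In HK2 KO cells 16 of 46 members were called lower and 0 higher than in HK2 KO cells with DMSO, where 29.4% of all genes tested were called, 13.5% lower and 15.9% higher (edgeR). In PGP KO cells 23 members were called lower and 0 higher than in PGP KO cells with DMSO, where 31.5% of all genes tested were called, 15.4% lower and 16.1% higher (edgeR). The members' median log2 fold change was -0.32 in HK2 KO cells and -0.41 in PGP KO cells, against 0.03 and 0.04 over all genes tested. The WT counterpart is the 26 given above. At 24 h, 13 members were called lower in all 3 genotypes, each against its own DMSO group: PSMA7, PSMB1, PSMB2, PSMC3, PSMD1, PSMD2, PSMD7, PSMD11, PSMD12, PSMD13, PSME2, PSME3 and PSMG4. Another 10 were called in 2 genotypes, 6 in 1 and 17 in none. The share of all genes tested that were called lower in all 3 genotypes was not counted. Whether the overlap of the members differs from that of other genes is therefore not shown.

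**Figure D1:**
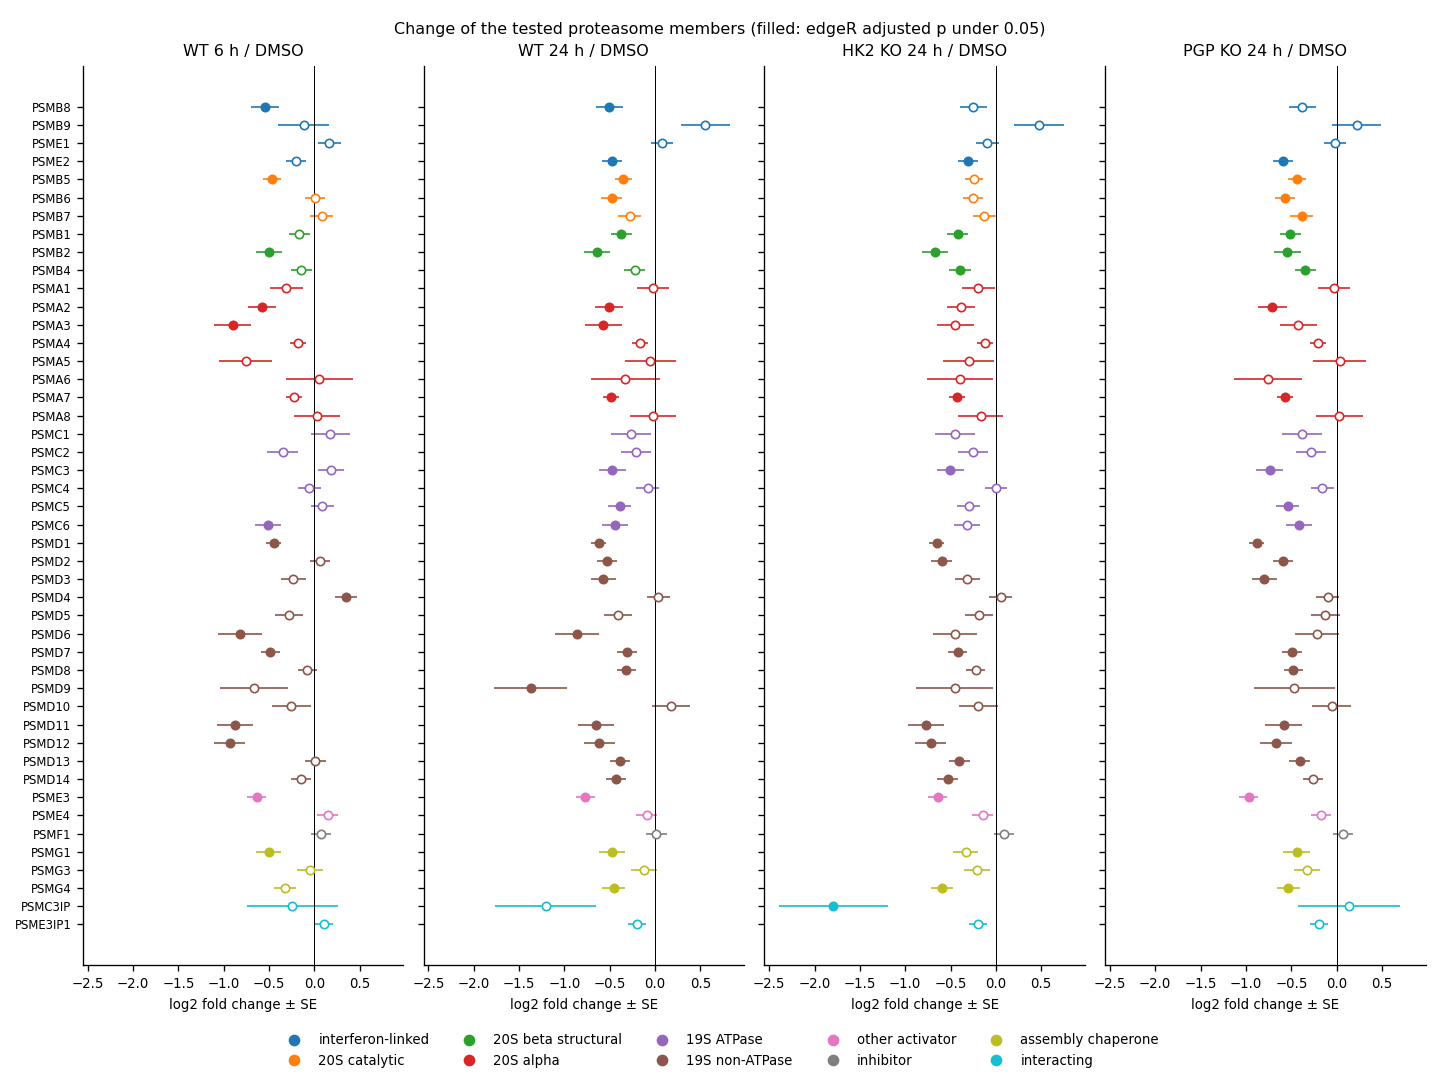
Log2 fold change (x axis, ± SE) of the 46 tested members (y axis, by class) for WT cells at 6 h, WT cells at 24 h, HK2 KO cells at 24 h and PGP KO cells at 24 h, each against its own DMSO group; filled points had an edgeR adjusted p under 0.05. Filled points lie left of zero, except PSMD4 at 6 h, and PSMB9, PSMF1, PSMD4, PSMD10 and PSME4 show no filled point at 24 h.

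No difference between genotypes passed the test for any member. In DMSO, 0 of 46 members were called between HK2 KO and WT cells, and 0 between PGP KO and WT cells; at an unadjusted p under 0.05 the edgeR counts were 0 and 2, and DESeq2 called 0 in each. Of all genes tested, 0.00861% and 0.0% were called in these comparisons. The 24 h response of HK2 KO cells and that of PGP KO cells were each compared with that of WT cells by an interaction contrast, and 0 members were called in each, with 0 and 1 at an unadjusted p under 0.05 in edgeR and 0 by DESeq2. Of all genes tested 0.0% were called in either. Differences in response ranged from -0.58 to 0.92 on the log2 scale in HK2 KO minus WT and from -0.42 to 1.34 in PGP KO minus WT, so a larger count in WT than in HK2 KO cells is not shown to be a difference in response.

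Of the interferon-linked class, PSMB8 was called lower after ironomycin in WT cells and PSME2 at 24 h in each genotype. PSME1 and PSMB9 were called in no comparison. Among the alternative fits, PSMB9 was called higher in WT cells at 24 h against DMSO only with those groups fitted alone. Against 6 h it was called higher only without the low-count filter. PSMB8 (ENSG00000204264), the immunoproteasome subunit that replaces PSMB5, had 99.9, 79.9 and 96.4 CPM in HK2 KO cells at 24 h, against 105, 113 and 110 CPM in HK2 KO cells with DMSO. It had 101, 87.6 and 87.9 CPM in PGP KO cells at 24 h, against 120, 110 and 130 CPM in PGP KO cells with DMSO. In WT cells it had 101, 54.8 and 95.8 CPM at 6 h and 88.3, 81.9 and 88.5 CPM at 24 h, against 122, 124 and 121 CPM with DMSO. Every treated library of a genotype lay below every DMSO library of that genotype, and replicate 2 of the 6 h group was the lowest of all. PSMB8 overlaps PSMB8-AS1, which had 2697 counts, outside its 3′ end. PSMB8 was called lower in WT cells at 6 h (log2 fold change -0.54 ± 0.15, SE, edgeR adjusted p = 0.0125) and at 24 h (-0.50 ± 0.15, adjusted p = 0.0142). Without replicate 2 of the 6 h group the 6 h change was -0.32 with an edgeR adjusted p of 0.0497, and with the compared groups fitted alone the 6 h call was lost (-0.54, edgeR adjusted p = 0.131). In HK2 KO cells it was -0.25 ± 0.15 (adjusted p = 0.237) and in PGP KO cells -0.38 ± 0.15 (adjusted p = 0.063). With the replicate number as a block, a pairing that the deviations of the PGP KO libraries show, the PGP KO value was -0.38 with an edgeR adjusted p of 0.0318; it was also called with the compared groups alone (adjusted p = 0.024) and without the low-count filter (adjusted p = 0.0478).

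PSMB9 (ENSG00000240065), the subunit that replaces PSMB6, did not pass the test in any comparison when all 7 groups were fitted with the low-count filter. It had 29, 23.1 and 16.1 CPM in HK2 KO cells at 24 h, against 12.5, 18.3 and 17.5 CPM in HK2 KO cells with DMSO. It had 30.8, 23.5 and 18.9 CPM in PGP KO cells at 24 h, against 11.2, 25.5 and 25.2 CPM in PGP KO cells with DMSO. The WT values were 12.6, 17.7 and 17.1 CPM at 6 h and 33.3, 23.4 and 18.9 CPM at 24 h, against 15.5, 17.5 and 18.4 CPM with DMSO. The WT groups at 24 h and with DMSO did not overlap, while both knockouts overlapped their DMSO groups, and replicate 1 was the highest of each 24 h group. The log2 fold change at 24 h was 0.48 ± 0.27 in HK2 KO cells (adjusted p = 0.202), 0.22 ± 0.27 in PGP KO cells (adjusted p = 0.572) and 0.55 ± 0.27 in WT cells (edgeR adjusted p = 0.131). Leaving out each library gave 0.26 to 0.66 in HK2 KO cells and 0.29 to 0.70 in WT cells, the lowest in each without replicate 1 of the 24 h group, and no call. With the WT 24 h and DMSO groups fitted alone, PSMB9 was called higher (0.55, edgeR adjusted p = 0.0415). At 24 h against 6 h in WT cells it was 0.67 ± 0.27 (edgeR adjusted p = 0.0974), and it was called higher there without the low-count filter. PSMB10 (ENSG00000205220), which replaces PSMB7, was under the filter, with 0 counts over the HK2 KO 24 h libraries, 8 over HK2 KO DMSO, 8 over PGP KO 24 h, 4 over PGP KO DMSO, 12 over WT 6 h, 2 over WT 24 h and 6 over WT DMSO. Its change was not detectable at this depth.

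Of the 2 PA28 subunits, which are built into 1 ring, PSME2 was called lower at 24 h and PSME1 was not, a difference between genes that was not tested. PSME2 (ENSG00000100911) had 186, 165 and 174 CPM in HK2 KO cells at 24 h, against 211, 232 and 206 CPM in HK2 KO cells with DMSO. It had 164, 163 and 172 CPM in PGP KO cells at 24 h, against 256, 239 and 258 CPM in PGP KO cells with DMSO. For WT the values were 197, 257 and 185 CPM at 6 h and 184, 186 and 159 CPM at 24 h, against 248, 246 and 243 CPM with DMSO. At 24 h no library overlapped the DMSO group of its genotype, and at 6 h replicate 2 lay above it. The 6 h log2 fold change was -0.21 and not called, and PSME2 was called lower at 6 h without replicate 2 of the 6 h group. PSME2 was called lower at 24 h in HK2 KO cells (-0.30 ± 0.11, adjusted p = 0.0375), PGP KO cells (-0.59 ± 0.11, adjusted p = 0.000213) and WT cells (-0.48 ± 0.11, edgeR adjusted p = 0.00175). The HK2 KO call was lost without replicate 2 or 3 of its 24 h group or replicate 1 or 2 of its DMSO group, with edgeR adjusted p-values of 0.125, 0.0711, 0.0544 and 0.135, and without the low-count filter (adjusted p = 0.0846). About 1.93% as many counts as PSME2 has were assigned to its pseudogenes.

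PSME1 (ENSG00000092010), its partner, was not called. It had 283, 249 and 229 CPM in HK2 KO cells at 24 h, against 290, 255 and 267 CPM in HK2 KO cells with DMSO. It had 308, 232 and 228 CPM in PGP KO cells at 24 h, against 255, 270 and 255 CPM in PGP KO cells with DMSO. WT libraries had 273, 318 and 280 CPM at 6 h and 304, 254 and 261 CPM at 24 h, against 283, 271 and 223 CPM with DMSO. The groups overlapped in each genotype, and the log2 fold changes lay between -0.09 and 0.17 with an SE of 0.12. The end of PSME1 overlaps EMC9 on the other strand, so reads of the pair may be mixed if counting ignored strand.

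**Figure D2:**
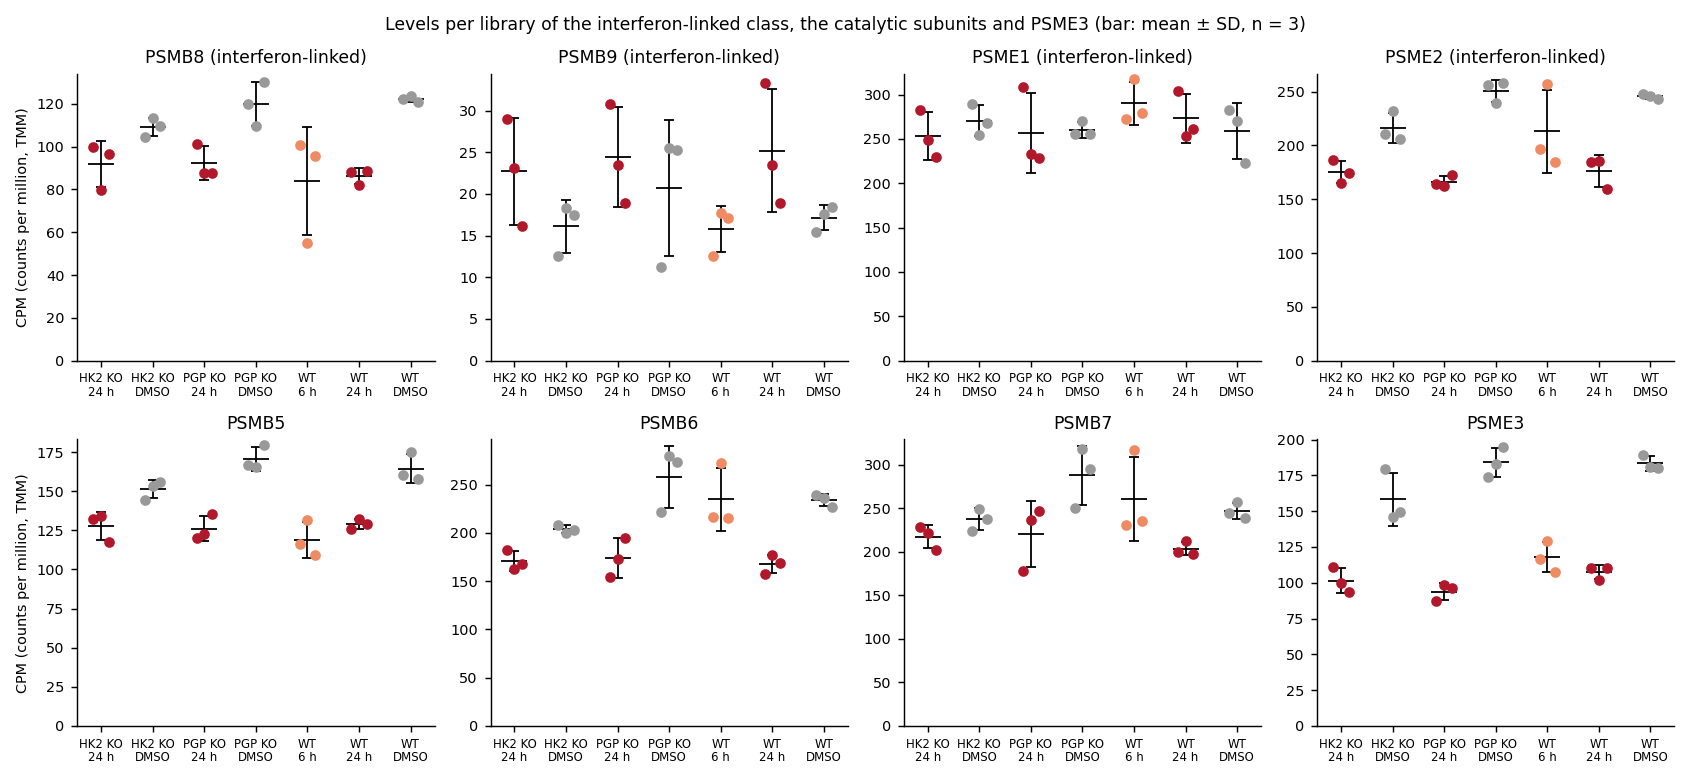
Level (y axis, CPM from 0) in each library of the 4 tested interferon-linked members, the catalytic subunits PSMB5, PSMB6 and PSMB7, and PSME3, by group (x axis); points are libraries and bars show the mean ± SD of 3. PSMB8, PSME2 and PSME3 lie below their DMSO groups at 24 h, PSME1 overlaps them, and PSMB9 is highest in replicate 1 of each 24 h group.

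Of the 3 catalytic subunits that these members replace, 0 were called lower in HK2 KO cells, 3 in PGP KO cells and 2 in WT cells at 24 h, and 1 in WT cells at 6 h, where 13.5%, 15.4%, 14.6% and 11.1% of all genes tested were called lower (edgeR). PSMB5, the chymotrypsin-like subunit, had 132, 134 and 118 CPM in HK2 KO cells at 24 h, against 145, 154 and 156 CPM with DMSO. It had 120, 122 and 135 CPM in PGP KO cells at 24 h, against 167, 165 and 180 CPM with DMSO. In WT it had 116, 132 and 109 CPM at 6 h and 126, 132 and 129 CPM at 24 h, against 161, 175 and 158 CPM with DMSO. No treated library overlapped its DMSO group. PSMB5 was called at 6 h (-0.47 ± 0.10, edgeR adjusted p = 0.0012), at 24 h in WT cells (-0.35 ± 0.10, adjusted p = 0.00747) and in PGP KO cells (-0.44 ± 0.10, adjusted p = 0.00134), and in HK2 KO cells it was -0.24 ± 0.10 (adjusted p = 0.0619). In HK2 KO cells it was called lower in DESeq2 (-0.26, adjusted p = 0.0299) and with the replicate block (-0.24, edgeR adjusted p = 0.0461).

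PSMB6, the caspase-like subunit, had 182, 163 and 168 CPM in HK2 KO cells at 24 h, against 208, 200 and 203 CPM with DMSO. It had 154, 173 and 195 CPM in PGP KO cells at 24 h, against 221, 279 and 273 CPM with DMSO. WT libraries had 216, 273 and 216 CPM at 6 h and 158, 177 and 169 CPM at 24 h, against 239, 236 and 227 CPM with DMSO. At 24 h the groups did not overlap in any genotype. Its log2 fold change at 24 h was -0.25 ± 0.11 in HK2 KO cells (adjusted p = 0.0966), -0.57 ± 0.11 in PGP KO cells (adjusted p = 0.000483) and -0.48 ± 0.11 in WT cells (edgeR adjusted p = 0.00234). With the compared groups alone PSMB6 was called lower in HK2 KO cells (-0.26, edgeR adjusted p = 0.0474). It was also called lower at 24 h than at 6 h (-0.48 ± 0.11, edgeR adjusted p = 0.00452), a call lost when those groups were fitted alone (adjusted p = 0.0647).

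PSMB7, the trypsin-like subunit, had 229, 221 and 202 CPM in HK2 KO cells at 24 h, against 224, 249 and 238 CPM with DMSO. WT cells gave 231, 317 and 236 CPM at 6 h and 200, 212 and 198 CPM at 24 h, against 244, 258 and 239 CPM with DMSO. It was called in PGP KO cells, where it had 178, 236 and 247 CPM at 24 h, against 251, 318 and 295 CPM with DMSO (-0.39 ± 0.13, edgeR adjusted p = 0.0248). That call was lost without replicate 1 of the 24 h group or replicate 2 or 3 of the DMSO group (edgeR adjusted p = 0.134, 0.118 and 0.0581). In HK2 KO cells it was -0.13 ± 0.13 and in WT cells -0.28 ± 0.13 at 24 h, neither past the threshold (edgeR adjusted p = 0.5 and 0.105). The WT 24 h value was called lower with the replicate block and with the compared groups alone (edgeR adjusted p = 0.0483 and 0.0184). With library totals the PGP KO call was lost (edgeR adjusted p = 0.0528).

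Counts of the subunits that compete for 1 place, and of the PA28 partners PSME1 and PSME2, were set against each other within libraries. Tags of 2 genes are not calibrated to each other, so the ratio compares groups and not numbers of molecules. PSMB9 over PSMB6 was 0.159, 0.142 and 0.0959 in HK2 KO cells at 24 h, against 0.06, 0.0917 and 0.0862 with DMSO. It was 0.2, 0.136 and 0.0968 in PGP KO cells at 24 h, against 0.0508, 0.0913 and 0.0923 with DMSO. In WT cells it was 0.0583, 0.0649 and 0.079 at 6 h and 0.211, 0.132 and 0.112 at 24 h, against 0.0646, 0.0743 and 0.0811 with DMSO. The 24 h libraries lay above the DMSO libraries in each genotype and the 6 h libraries overlapped them. PSMB8 over PSMB5 was 0.868, 0.416 and 0.878 in WT cells at 6 h. It averaged 0.723 ± 0.115 in HK2 KO cells at 24 h and 0.721 ± 0.017 with DMSO, 0.736 ± 0.0975 in PGP KO cells at 24 h and 0.703 ± 0.0345 with DMSO, and 0.669 ± 0.0442 in WT cells at 24 h and 0.744 ± 0.0334 with DMSO (SD, n = 3 each). The WT 24 h libraries lay below the WT DMSO libraries, and the other treated groups overlapped theirs. PSME1 over PSME2 averaged 1.45 ± 0.115 in HK2 KO cells at 24 h and 1.26 ± 0.144 with DMSO, 1.55 ± 0.297 in PGP KO cells at 24 h and 1.04 ± 0.0788 with DMSO, and 1.55 ± 0.162 in WT cells at 24 h and 1.05 ± 0.119 with DMSO. Its groups did not overlap in PGP KO and WT cells and overlapped in HK2 KO cells. These ratios were described and not tested; with 3 libraries against 3, an exact two-sided permutation test cannot go below 0.1.

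The called genes of class I antigen presentation, the pathway that the class feeds, were higher after ironomycin. Of 14 tested genes of a list of class I presentation, 7 were called higher in HK2 KO cells, 5 in PGP KO cells and 5 in WT cells at 24 h, and 2 in WT cells at 6 h, and 0 were called lower in these comparisons (edgeR). Of all genes tested, 15.9%, 16.1%, 15.3% and 10.9% were called higher; the 6 h share of the list, 14.3%, lies near the last of these. TAP1 had 8.55, 7.7 and 8.24 CPM in HK2 KO cells at 24 h, against 6.03, 2.89 and 5.57 CPM with DMSO. It had 10.5, 9.3 and 7.6 CPM in PGP KO cells at 24 h, against 3.21, 6.37 and 3.29 CPM with DMSO. In WT cells it had 5.55, 8.95 and 4.87 CPM at 6 h and 9.86, 9.52 and 8.36 CPM at 24 h, against 3.13, 2.71 and 3.65 CPM with DMSO. No treated group overlapped its DMSO group. TAP1 was called higher in WT cells at 24 h (1.53 ± 0.30, edgeR adjusted p = 0.000454), a call that stood without any 1 library. Its other calls were lost in some of these fits. In HK2 KO cells (0.77 ± 0.29, adjusted p = 0.0479) the call was lost in 5 of 6 fits that left out a library, and without replicate 2 of the DMSO group the change was 0.48 (edgeR adjusted p = 0.281); it was also lost with RLE factors, without the low-count filter, with the compared groups alone and in DESeq2 (adjusted p between 0.051 and 0.0896). In PGP KO cells (1.06 ± 0.30, adjusted p = 0.00848) it was lost without replicate 1 or 3 of the DMSO group (edgeR adjusted p = 0.05003 and 0.0624). At 6 h (1.00 ± 0.31, adjusted p = 0.0235) it was lost without replicate 2 of the 6 h group or replicate 1 or 2 of the DMSO group (edgeR adjusted p = 0.154, 0.0649 and 0.0851). Without replicate 2 of the 6 h group the change was 0.70. HLA-E, a class I molecule read by natural killer cells, was called higher in HK2 KO cells (0.81), PGP KO cells (0.80) and WT cells at 6 h (0.58) and 24 h (0.79). ERAP1, which trims peptides for class I, was called higher at 24 h in HK2 KO cells (0.80), PGP KO cells (1.12) and WT cells (1.05). So was B2M, the light chain, in HK2 KO cells (0.67), PGP KO cells (0.62) and WT cells (0.72), and the chaperone CANX was called in HK2 KO cells (0.52). The heavy chain HLA-B was called higher in HK2 KO cells (0.55) and PGP KO cells (0.48), and TAPBP, which loads peptides on class I, in HK2 KO cells (0.38) and WT cells at 24 h (0.37). The 4 calls of these 2 genes were each lost in 4 or 5 of 6 fits that left out a library (edgeR adjusted p between 0.0508 and 0.167).

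Of 11 tested genes of interferon signalling, 5 were called higher in HK2 KO cells, 6 in PGP KO cells and 6 in WT cells at 24 h, and 5 in WT cells at 6 h, with 0 lower, where 15.9%, 16.1%, 15.3% and 10.9% of all genes tested were called higher (edgeR). STAT2 and IRF9, which are part of the factor that binds the response element printed above, had 24 h log2 fold changes of 2.11 and 2.06 in HK2 KO cells, 2.15 and 2.72 in PGP KO cells, and 2.25 and 2.30 in WT cells, each called. At 6 h they were 1.61 and 1.51 in WT cells, and the IRF9 call was lost without replicate 2 of the 6 h group (1.18, edgeR adjusted p = 0.0658). IRF7, a factor that interferon induces, was called higher at 24 h in HK2 KO cells (1.51), PGP KO cells (1.54) and WT cells (1.76). Its 6 h call (0.82) was lost without replicate 3 of the 6 h group (0.41, edgeR adjusted p = 0.307) or replicate 1 of the DMSO group (adjusted p = 0.185). The receptor subunit IFNGR2 was called at 24 h in HK2 KO cells (0.84), PGP KO cells (0.82) and WT cells (0.49), the WT call being lost without replicate 2 or 3 of the 24 h group or replicate 2 of the DMSO group (edgeR adjusted p = 0.0697, 0.0941 and 0.139). IRF1, which drives immunoproteasome genes, was called at 6 h (0.79 ± 0.20, adjusted p = 0.00637; 0.46 and 0.066 without replicate 2 of the 6 h group, edgeR). At 24 h IRF1 was 0.48 in HK2 KO cells, 0.49 in PGP KO cells and 0.49 in WT cells, none past the threshold (edgeR adjusted p = 0.079, 0.0693 and 0.0669). Without the low-count filter, with the replicate block and with the compared groups alone it was called higher in each genotype. The edgeR adjusted p-values were 0.0269, 0.0247 and 0.0331 in HK2 KO cells, 0.0144, 0.0181 and 0.0237 in PGP KO cells, and 0.0181, 0.0194 and 0.013 in WT cells. Library totals called it in PGP KO and WT cells, and RLE factors and DESeq2 in none. The kinase TYK2 was called in WT cells at 24 h (0.58) and at 6 h (0.42), the 6 h call being lost without replicate 2 of the 6 h group or replicate 2 or 3 of the DMSO group (edgeR adjusted p = 0.125, 0.083 and 0.0783). Without replicate 2 of the 6 h group the TYK2 change was 0.30. Its calls in HK2 KO cells (0.48) and PGP KO cells (0.38) were lost in 2 and 4 of 6 such fits, without replicate 3 of the HK2 KO 24 h group or replicate 2 of its DMSO group, and without replicate 2 or 3 of the PGP KO 24 h group or replicate 1 or 3 of its DMSO group. The kinase JAK1 was called higher in PGP KO cells (0.41) and WT cells at 24 h (0.49), calls lost in 5 and 3 of 6 such fits (edgeR adjusted p between 0.0512 and 0.25). Both lists were chosen with earlier results of these libraries known.

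**Figure D3:**
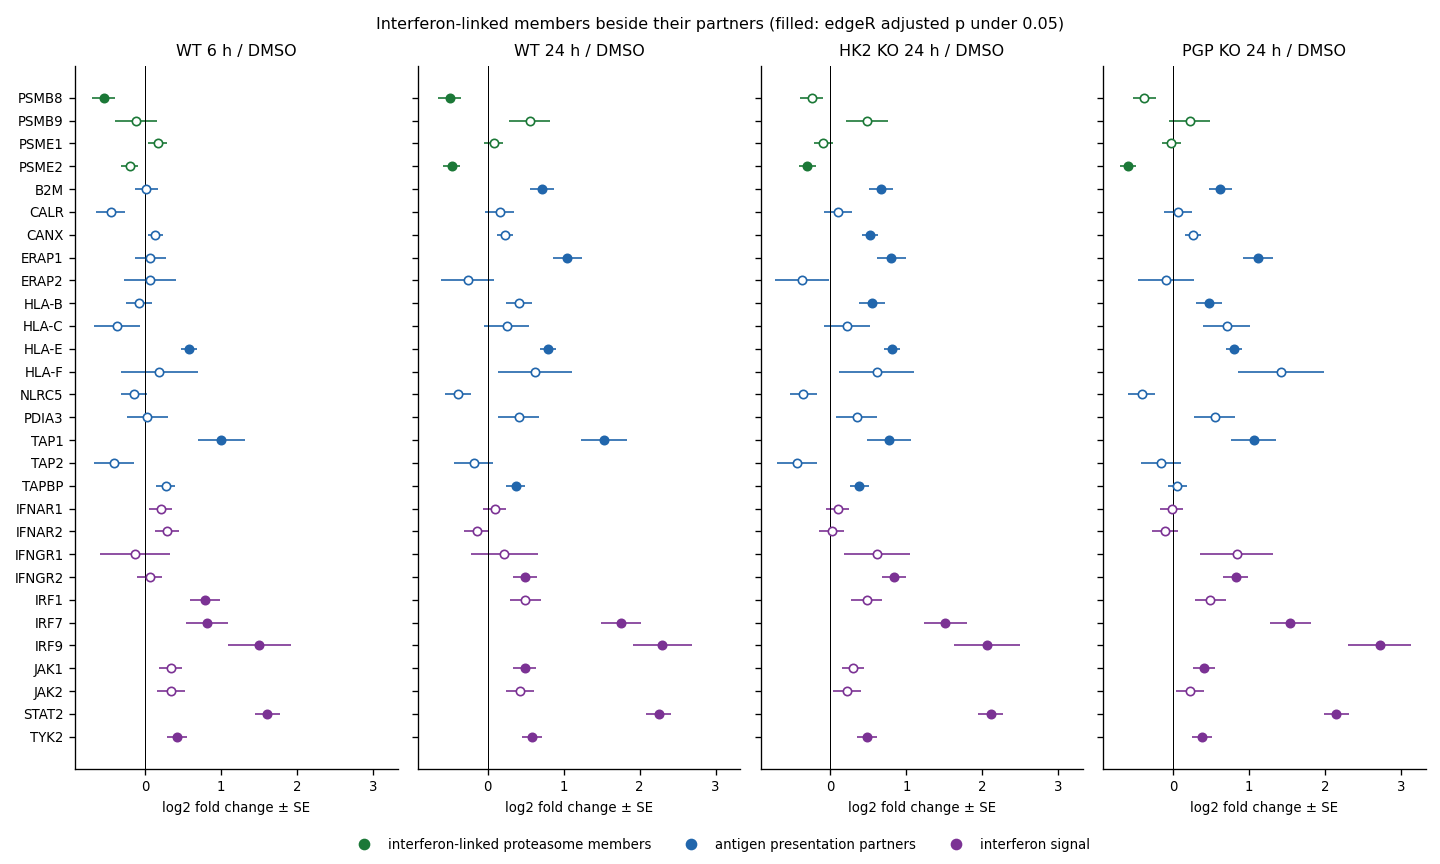
Log2 fold change (x axis, ± SE) of the 4 tested interferon-linked members, 14 genes of class I antigen presentation and 11 genes of interferon signalling (y axis) for WT cells at 6 h, WT cells at 24 h, HK2 KO cells at 24 h and PGP KO cells at 24 h, each against its own DMSO group; filled points had an edgeR adjusted p under 0.05. Filled points of both lists lie right of zero, and those of the proteasome members lie left of it.

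Among the other activators, PSME3 was lower in every treated library and PSME4 was not called. PSME3, the nuclear PA28 gamma activator, had 111, 100 and 93.4 CPM in HK2 KO cells at 24 h, against 179, 146 and 150 CPM with DMSO. It had 86.9, 98.5 and 96.1 CPM in PGP KO cells at 24 h, against 174, 183 and 195 CPM with DMSO. The WT values were 117, 129 and 108 CPM at 6 h and 111, 102 and 110 CPM at 24 h, against 189, 181 and 180 CPM with DMSO. No treated library overlapped its DMSO group in any genotype. The log2 fold change was -0.64 ± 0.11 in HK2 KO cells (adjusted p = 7.97e-05), -0.97 ± 0.11 in PGP KO cells (adjusted p = 4.03e-07), and in WT cells -0.64 ± 0.10 at 6 h (adjusted p = 0.00013) and -0.77 ± 0.11 at 24 h (edgeR adjusted p = 7.15e-06). PSME4, which encodes the activator PA200, had 85.5 ± 4.13 CPM in HK2 KO cells at 24 h and 94.7 ± 3.65 CPM with DMSO, 87.5 ± 4.12 CPM in PGP KO cells at 24 h and 98.7 ± 5.99 CPM with DMSO, and 86.6 ± 7.83 CPM in WT cells at 24 h and 92.5 ± 9.10 CPM with DMSO (SD, n = 3 each). Its groups overlapped in WT cells and not in the knockouts, with log2 fold changes between -0.17 and 0.15 in the 4 comparisons (edgeR adjusted p between 0.269 and 0.577). PSMF1, the inhibitor PI31, had 97.6 to 112 CPM in HK2 KO cells at 24 h, against 92.6 to 103 CPM with DMSO, 99.9 to 108 CPM in PGP KO cells at 24 h, against 92.8 to 104 CPM with DMSO, and in WT cells 91.1 to 121 CPM at 6 h and 93.7 to 112 CPM at 24 h, against 92.2 to 114 CPM with DMSO. The groups overlapped in each genotype. It had log2 fold changes between 0.01 and 0.09 in the 4 comparisons with DMSO, with an SE of 0.11, and was not called.

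Of the 20S alpha subunits, which form the outer rings and the gate of the core, 1 of 8 was called lower in HK2 KO cells, 2 in PGP KO cells and 3 in WT cells at 24 h, and 2 in WT cells at 6 h (edgeR). The HK2 KO share, 12.5%, lies near the 13.5% of all genes tested that were called lower there; in the other comparisons 15.4%, 14.6% and 11.1% were. PSMA7 had 825, 727 and 762 CPM in HK2 KO cells at 24 h, against 1029, 1051 and 1040 CPM with DMSO. It had 674, 794 and 812 CPM in PGP KO cells at 24 h, against 1114, 1121 and 1140 CPM with DMSO. For WT the values were 903, 984 and 876 CPM at 6 h and 751, 810 and 750 CPM at 24 h, against 1115, 1076 and 1042 CPM with DMSO. The treated libraries lay below the DMSO libraries of their genotype throughout. Its 24 h log2 fold change was -0.43 ± 0.09 in HK2 KO cells, -0.57 ± 0.09 in PGP KO cells and -0.48 ± 0.09 in WT cells (edgeR adjusted p = 0.000957, 4.84e-05 and 0.000266). At 6 h it was -0.23 and not called. PSMA7 was called lower at 6 h without replicate 2 of the 6 h group and in DESeq2 (-0.24, adjusted p = 0.022).

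PSMA3 had 161, 136 and 208 CPM in HK2 KO cells at 24 h, against 209, 242 and 238 CPM with DMSO. It had 161, 128 and 171 CPM in PGP KO cells at 24 h, against 233, 181 and 206 CPM with DMSO. WT cells had 146, 79.2 and 175 CPM at 6 h and 143, 178 and 183 CPM at 24 h, against 230, 228 and 290 CPM with DMSO. The treated groups lay below their DMSO groups, with replicate 2 the lowest of the 6 h group. In WT cells its log2 fold change was -0.90 ± 0.20 at 6 h and -0.57 ± 0.20 at 24 h (edgeR adjusted p = 0.00263 and 0.0351). The 24 h call was lost without replicate 1 or 2 of the 24 h group or replicate 3 of the DMSO group (edgeR adjusted p = 0.122, 0.052 and 0.129). In PGP KO cells PSMA3 was -0.42 ± 0.20 (adjusted p = 0.119), and with the replicate block -0.43 ± 0.16 (edgeR adjusted p = 0.0423). It was also called lower there without the low-count filter and with the compared groups alone (edgeR adjusted p = 0.0119 and 0.0226). In HK2 KO cells it was -0.45 and not called in the main fit. Without the filter, with the block and with the compared groups alone it was called lower (edgeR adjusted p = 0.00452, 0.0277 and 0.0212). PSMA3 ends in a region shared with PSMA3-AS1 on the other strand, and its reads may be mixed with that gene's. PSMA6 rests on 396 counts in all, and its pseudogenes hold 78.8% as many, so its value is uncertain. PSMA5 had 33.5, 11.1 and 41.2 CPM in WT cells at 6 h, the lowest being replicate 2, and was not called in the main fit. It was called at 6 h without the low-count filter, with the replicate block and without replicate 3 of the 6 h group. These fits also called it at 24 h against 6 h. PSMA8, the testis form, was not called in any comparison.

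The structural beta subunits PSMB1, PSMB2 and PSMB4 were each called lower at 24 h in both knockouts, and PSMB1 and PSMB2 in WT cells (edgeR). Of all genes tested, 13.5% were called lower in HK2 KO cells, 15.4% in PGP KO cells and 14.6% in WT cells. PSMB3 was not analysed here. PSMB2 had 127, 94.3 and 132 CPM in HK2 KO cells at 24 h, against 188, 185 and 190 CPM with DMSO. It had 123, 94.1 and 124 CPM in PGP KO cells at 24 h, against 152, 168 and 175 CPM with DMSO. WT libraries had 140, 100 and 158 CPM at 6 h and 111, 119 and 133 CPM at 24 h, against 183, 191 and 192 CPM with DMSO. Groups did not overlap, and replicate 2 was the lowest of the 6 h group and of both knockout 24 h groups. The log2 fold change was -0.67 ± 0.15 in HK2 KO cells, -0.54 ± 0.15 in PGP KO cells and -0.64 ± 0.15 in WT cells at 24 h (edgeR adjusted p = 0.00129, 0.0066 and 0.00169). At 6 h it was -0.50 ± 0.14 (edgeR adjusted p = 0.015), and -0.34 with an adjusted p of 0.0803 without replicate 2 of the 6 h group. PSMB1 had 397, 377 and 314 CPM in HK2 KO cells at 24 h, against 476, 524 and 457 CPM with DMSO. It had 331, 415 and 308 CPM in PGP KO cells at 24 h, against 491, 539 and 472 CPM with DMSO. In WT it had 442, 455 and 426 CPM at 6 h and 370, 415 and 359 CPM at 24 h, against 503, 535 and 446 CPM with DMSO. Its 24 h libraries lay below the DMSO libraries in each genotype, and its 6 h libraries overlapped them. PSMB1 was -0.42 ± 0.12 in HK2 KO cells, -0.51 ± 0.12 in PGP KO cells and -0.38 ± 0.12 in WT cells at 24 h (edgeR adjusted p = 0.00799, 0.00159 and 0.0161). The WT call was lost without replicate 3 of the 24 h group or replicate 2 of the DMSO group (edgeR adjusted p = 0.0533 and 0.0608). The PGP KO call of PSMB4 (-0.34) was lost without replicate 1 or 3 of the 24 h group or replicate 2 of the DMSO group (edgeR adjusted p = 0.0562, 0.134 and 0.112).

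Of the 6 ATPases of the 19S base, which unfold substrates and open the gate, 1 was called lower in HK2 KO cells, 3 in PGP KO cells and 3 in WT cells at 24 h, and 1 in WT cells at 6 h (edgeR). The share of 16.7% in HK2 KO cells and at 6 h lies near the 13.5% and 11.1% of all genes tested that were called lower there; in PGP KO and WT cells at 24 h 15.4% and 14.6% were. PSMC3 had 88.8, 88.4 and 73.0 CPM in HK2 KO cells at 24 h, against 119, 121 and 114 CPM with DMSO. It had 72.7, 90.4 and 81.1 CPM in PGP KO cells at 24 h, against 134, 137 and 136 CPM with DMSO. WT cells gave 124, 188 and 112 CPM at 6 h and 105, 81.9 and 82.2 CPM at 24 h, against 124, 131 and 117 CPM with DMSO. Every 24 h group lay below its DMSO group, whereas the 6 h group spanned it, with replicate 2 the highest of all 21 libraries. PSMC3 was -0.50 ± 0.15 in HK2 KO cells, -0.74 ± 0.15 in PGP KO cells and -0.47 ± 0.15 in WT cells at 24 h (edgeR adjusted p = 0.0141, 0.000593 and 0.019). The HK2 KO call was lost without replicate 3 of its 24 h group (adjusted p = 0.0684), and the WT call without replicate 2 or 3 of the 24 h group or replicate 2 of the DMSO group (edgeR adjusted p = 0.0768, 0.072 and 0.0593). It was also called lower at 24 h than at 6 h in WT cells (-0.65 ± 0.15, adjusted p = 0.00371), a value of -0.40 without replicate 2 of the 6 h group (edgeR adjusted p = 0.0303), and the call was lost when those groups were fitted alone (adjusted p = 0.0898).

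PSMC6 had 39.2, 38.7 and 46 CPM in HK2 KO cells at 24 h, against 44, 56.5 and 53.8 CPM with DMSO. It had 37.1, 36.3 and 40.5 CPM in PGP KO cells at 24 h, against 50.3, 48 and 53.5 CPM with DMSO. In WT cells it had 37.1, 31.2 and 46.1 CPM at 6 h and 34.7, 42.6 and 42.4 CPM at 24 h, against 47.2, 53.8 and 61.9 CPM with DMSO. The groups overlapped in HK2 KO cells only. It was called lower in WT cells at 6 h (-0.51 ± 0.14) and 24 h (-0.45 ± 0.14) and in PGP KO cells (-0.41 ± 0.15), with edgeR adjusted p-values of 0.0143, 0.0219 and 0.0347. The 6 h call was lost without replicate 2 of the 6 h group or replicate 3 of the DMSO group (-0.39 and -0.41, edgeR adjusted p = 0.0696 and 0.0884). The 24 h call was lost without replicate 1 of the 24 h group or replicate 3 of the DMSO group (edgeR adjusted p = 0.0917 and 0.105). In PGP KO cells it was lost in 5 of 6 such fits, all but the one without replicate 3 of the 24 h group, with edgeR adjusted p-values between 0.0501 and 0.0892. PSMC1, whose 13 pseudogenes hold 23.3% as many counts and whose end overlaps NRDE2 on the other strand, was not called in the main fit. It was called in HK2 KO cells without the low-count filter, with the replicate block and with the compared groups alone. In PGP KO cells it was called without the filter. At 24 h against 6 h it was called without the filter and without replicate 3 of the 6 h group.

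The non-ATPase subunits of the 19S cap, which hold the ubiquitin receptors and the deubiquitinase, included many of the calls. Of 14 tested, 7 were called lower in HK2 KO cells, 8 in PGP KO cells and 11 in WT cells at 24 h, and 5 lower and 1 higher in WT cells at 6 h (edgeR); of all genes tested, 13.5%, 15.4%, 14.6% and 11.1% were called lower. Within them the 8 lid subunits gave 5 calls in HK2 KO cells, 6 in PGP KO cells and 8 in WT cells at 24 h, and 4 in WT cells at 6 h, all lower. PSMD1, a scaffold of the base, had 248, 267 and 229 CPM in HK2 KO cells at 24 h, against 384, 381 and 405 CPM with DMSO. It had 220, 246 and 233 CPM in PGP KO cells at 24 h, against 425, 440 and 425 CPM with DMSO. The WT values were 321, 309 and 306 CPM at 6 h and 281, 285 and 262 CPM at 24 h, against 441, 417 and 417 CPM with DMSO. The groups did not overlap, and in WT cells the 6 h libraries lay between those of 24 h and DMSO. The log2 fold change was -0.65 ± 0.08 in HK2 KO cells, -0.88 ± 0.09 in PGP KO cells, and in WT cells -0.45 ± 0.08 at 6 h and -0.62 ± 0.08 at 24 h (edgeR adjusted p = 4.49e-06, 7.01e-08, 0.000504 and 6.48e-06).

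PSMD12, a lid subunit, had 36.3, 47.2 and 46.6 CPM in HK2 KO cells at 24 h, against 75.5, 76.1 and 62.9 CPM with DMSO. It had 48.2, 37.2 and 37.6 CPM in PGP KO cells at 24 h, against 86.4, 52.9 and 57.1 CPM with DMSO. For WT the values were 41.0, 27.7 and 40.1 CPM at 6 h and 48.7, 42.6 and 44.5 CPM at 24 h, against 74.3, 64.9 and 69.3 CPM with DMSO. No group overlapped its DMSO group. The log2 fold change was -0.94 ± 0.17 at 6 h and -0.62 ± 0.17 at 24 h in WT cells, -0.72 ± 0.17 in HK2 KO cells and -0.67 ± 0.17 in PGP KO cells (edgeR adjusted p = 0.000449, 0.00802, 0.00294 and 0.00511). In PGP KO cells it was -0.44 without replicate 1 of the DMSO group (edgeR adjusted p = 0.0505).

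The ubiquitin receptor PSMD4 was the 1 member called higher, in WT cells at 6 h, with 200, 255 and 177 CPM, against 176, 168 and 152 CPM with DMSO (0.35 ± 0.13, edgeR adjusted p = 0.0496). That call was lost in 5 of 6 fits that left out a library (all but the one without replicate 3 of the 6 h group), and without replicate 2 of the 6 h group the change was 0.19 (edgeR adjusted p = 0.299). PSMD11 and PSMD6 of the lid were at their lowest in replicate 2 of the 6 h group: PSMD11 had 193, 84.0 and 184 CPM in WT cells at 6 h, against 267, 295 and 285 CPM with DMSO. PSMD11 was called in the 4 comparisons with DMSO, at -0.88 ± 0.20 at 6 h and -0.65 ± 0.20 at 24 h in WT cells, -0.78 ± 0.20 in HK2 KO cells and -0.59 ± 0.20 in PGP KO cells (edgeR adjusted p = 0.0029, 0.0147, 0.00506 and 0.0287). Its PGP KO call was lost without replicate 2 or 3 of the 24 h group or replicate 1 of the DMSO group (adjusted p = 0.0564, 0.122 and 0.0807), and its WT 24 h call without replicate 2 of the 24 h group (edgeR adjusted p = 0.0517). PSMD6 was -0.82 ± 0.24 at 6 h (edgeR adjusted p = 0.0168). That call was lost without replicate 2 of the 6 h group (-0.53, adjusted p = 0.0738) or replicate 3 of the DMSO group (-0.63, edgeR adjusted p = 0.109). The call at 24 h of PSMD9, a chaperone of base assembly at 1.46 ± 0.423 CPM in WT cells at 24 h and 3.8 ± 0.441 CPM with DMSO (SD, n = 3 each), rests on 227 counts over all libraries, shares its end with WDR66 (60 counts) on the same strand, and was lost without replicate 2 of the 24 h group (edgeR adjusted p = 0.0505).

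**Figure D4:**
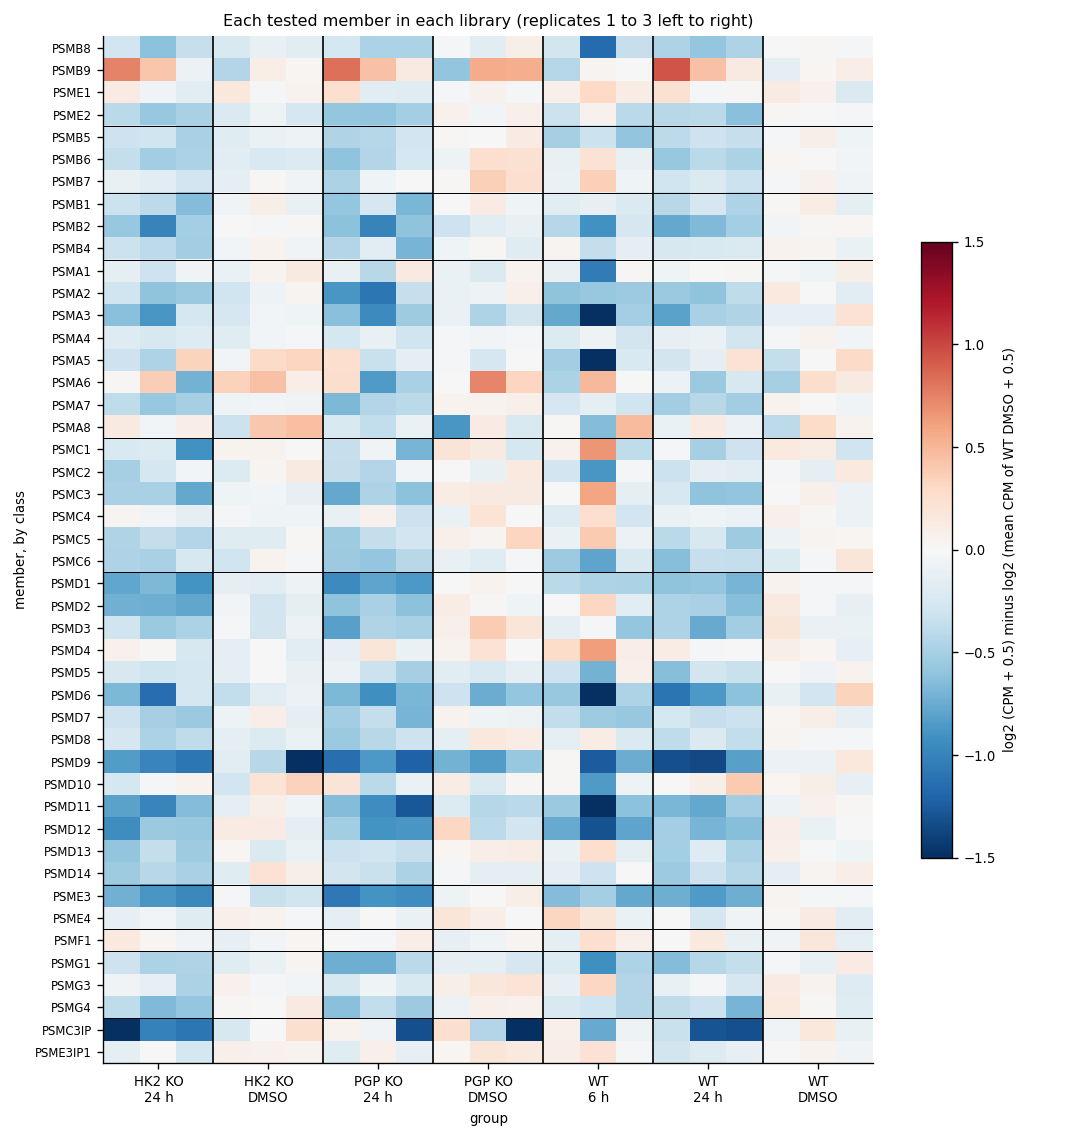
Colour shows log2 (CPM + 0.5) minus log2 of the WT DMSO mean CPM + 0.5, for the 46 tested members (rows, by class) in each of 21 libraries (columns, 3 per group); values beyond 1.5 in either direction have the end colours. Blue, for lower than WT DMSO, covers much of the 24 h columns of each genotype, and replicate 2 of the WT 6 h group stands out in both colours, with 15 members more than 0.5 below and 4 more than 0.5 above the mean of the other 2 replicates.

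The PSMG genes encode chaperones that build the 20S core. Of 3 tested PSMG genes, 1 was called lower in HK2 KO cells, 2 in PGP KO cells and 2 in WT cells at 24 h, and 1 in WT cells at 6 h, beside the same shares of all genes (edgeR). PSMG4 had 53.7, 44.3 and 46.8 CPM in HK2 KO cells at 24 h, against 71.2, 70.3 and 76.9 CPM with DMSO. It had 45.4, 54.4 and 48.1 CPM in PGP KO cells at 24 h, against 65.8, 73.9 and 73.7 CPM with DMSO. WT libraries had 59.8, 57.0 and 51.7 CPM at 6 h and 54.0, 56.1 and 43.2 CPM at 24 h, against 77.9, 71.2 and 61.7 CPM with DMSO. The treated and DMSO libraries did not overlap in any genotype. Its 24 h log2 fold change was -0.59 ± 0.12 in HK2 KO cells, -0.53 ± 0.12 in PGP KO cells and -0.46 ± 0.12 in WT cells (edgeR adjusted p = 0.000893, 0.00215 and 0.00659). The end of PSMG4 overlaps SLC22A23 on the other strand. PSMG1 had 71.7, 64.1 and 65.2 CPM in HK2 KO cells at 24 h, against 78.4, 83.2 and 91.7 CPM with DMSO. It had 53.4, 53.5 and 67 CPM in PGP KO cells at 24 h, against 81.1, 80.9 and 74.6 CPM with DMSO. In WT it had 77.3, 46.9 and 64.3 CPM at 6 h and 56.5, 66.3 and 69.6 CPM at 24 h, against 87.7, 82.4 and 97.4 CPM with DMSO. Every treated library lay below its DMSO group, by a small margin in HK2 KO cells. PSMG1 was called lower in WT cells at 6 h (-0.51 ± 0.14) and 24 h (-0.48 ± 0.14) and in PGP KO cells (-0.44 ± 0.14; edgeR adjusted p = 0.0132, 0.0132 and 0.0224). The 6 h call was lost without replicate 2 of the 6 h group or replicate 3 of the DMSO group (-0.34 and -0.44, edgeR adjusted p = 0.0715 and 0.0598). The 24 h call was lost without replicate 1 of the 24 h group (edgeR adjusted p = 0.057). The PGP KO call was lost without replicate 1 or 2 of the 24 h group or replicate 2 of the DMSO group (edgeR adjusted p = 0.0653, 0.0647 and 0.0642). PSMG3 was -0.33 in PGP KO cells with the replicate block (edgeR adjusted p = 0.0355). It was also called there with the compared groups alone, but not with all 7 groups fitted without a block. PSMG2 had 4 counts and the thymus subunit PSMB11 had 0 counts over all libraries.

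The symbols PSMC3IP and PSME3IP1 meet the rule by their letters, though they encode partners of proteasome genes and not subunits. PSMC3IP, a meiotic recombination factor, was called lower in HK2 KO cells at 0.612 ± 0.326 CPM at 24 h and 2.23 ± 0.453 CPM with DMSO (SD, n = 3 each; -1.79 ± 0.60, edgeR adjusted p = 0.0278). It rests on 161 counts in all, its end overlaps that of MLX (3071 counts) on the other strand, and the call was lost without replicate 1 or 3 of the 24 h group or replicate 2 or 3 of the DMSO group (edgeR adjusted p = 0.102, 0.0528, 0.0587 and 0.0834). PSME3IP1 was called lower at 24 h than at 6 h in WT cells and in no comparison with DMSO, and that call was lost in 5 of 6 fits that left out a library.

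Summed over a class, the constitutive 20S and 19S members reached 5138 ± 182 CPM in HK2 KO cells at 24 h and 6607 ± 137 CPM with DMSO, 5055 ± 216 CPM in PGP KO cells at 24 h and 6981 ± 127 CPM with DMSO, and in WT cells 5989 ± 285 CPM at 6 h, 5293 ± 103 CPM at 24 h and 6921 ± 146 CPM with DMSO (SD, n = 3 each). These are 77.8% and 72.4% of the DMSO mean in the HK2 KO and PGP KO cells at 24 h, and 86.5% at 6 h and 76.5% at 24 h in WT cells. The interferon-linked members summed to 544 ± 46.6 CPM in HK2 KO cells at 24 h and 613 ± 9.75 CPM with DMSO, 540 ± 56.0 CPM in PGP KO cells at 24 h and 652 ± 14.8 CPM with DMSO, and in WT cells 603 ± 38.5 CPM at 6 h, 561 ± 43.6 CPM at 24 h and 644 ± 33.6 CPM with DMSO. Their 24 h libraries overlapped the DMSO libraries in WT cells and not in the knockouts, whereas the constitutive sums overlapped in no genotype. The 19S non-ATPase sum was 74.0% of DMSO in HK2 KO cells, 68.3% in PGP KO cells and 72.8% in WT cells at 24 h. The 19S ATPase sum at 6 h was 825, 1104 and 769 CPM, so its group mean of 101% of DMSO depended on replicate 2. Sums weight the most counted genes, PSMA7 among them, and were described and not tested.

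**Figure D5:**
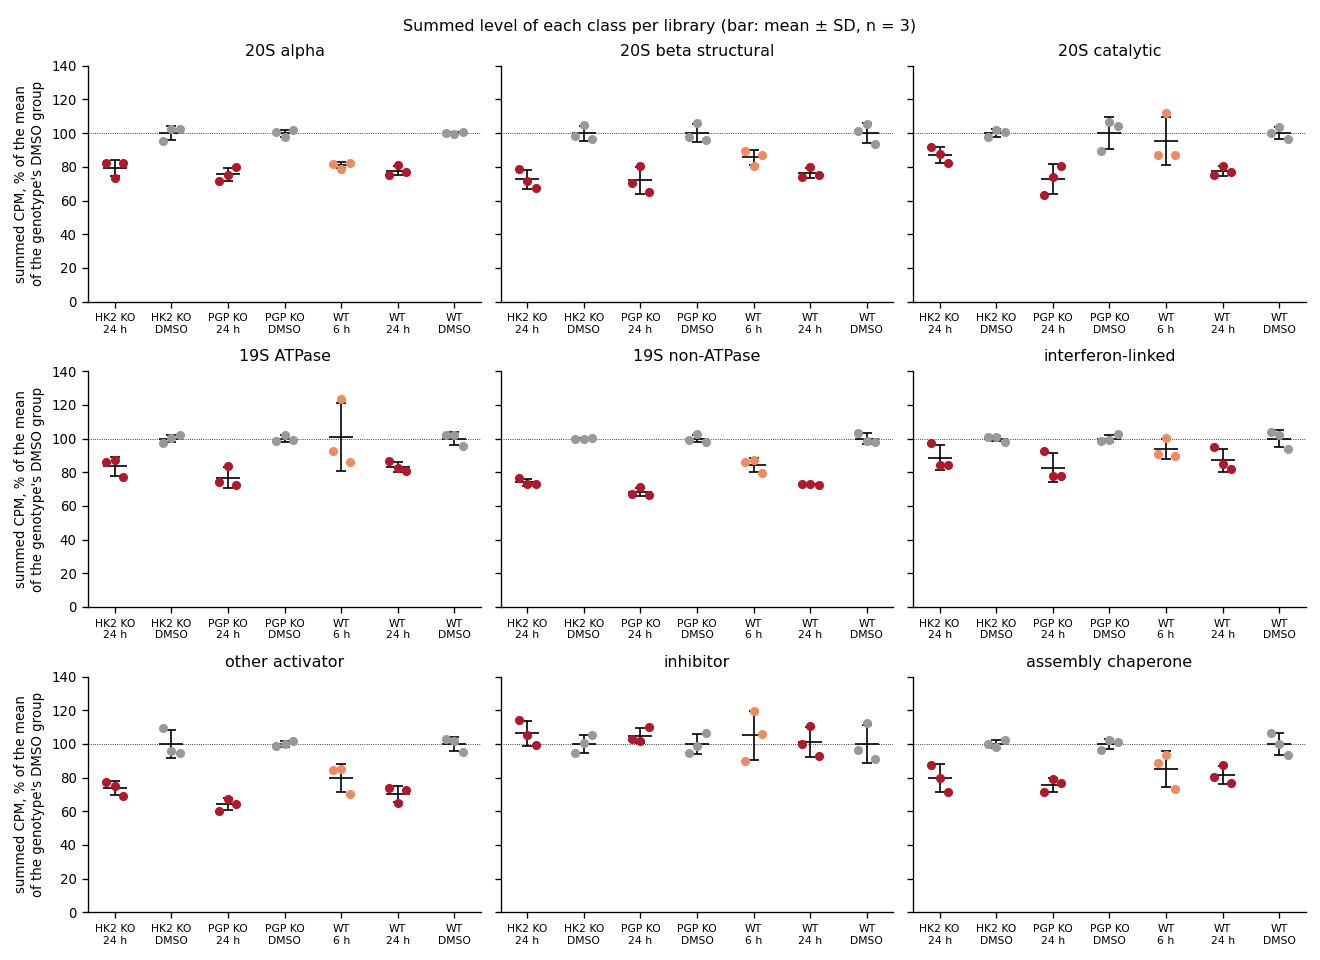
Summed CPM of each class in each library as a percent of the mean of the DMSO group of the same genotype (y axis from 0), by group (x axis); points are libraries and bars show the mean ± SD of 3. At 24 h the core and cap classes lie below 100%, the inhibitor lies around it, and the interferon-linked sum reaches 82.8% to 88.7% in the 3 genotypes.

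Genes that build or control the proteasome were followed on 3 lists. Of 12 tested partners and assembly factors, 1 was called higher and 3 lower in HK2 KO cells, 1 higher and 4 lower in PGP KO cells, and in WT cells 0 higher and 3 lower at 6 h and 1 higher and 4 lower at 24 h (edgeR). The shares called in either direction, 33.3% in HK2 KO cells and 25.0% at 6 h, lie near the 29.4% and 22.0% of all genes tested; in PGP KO and WT cells at 24 h they were 41.7%, against 31.5% and 29.8%. POMP, which matures the 20S core, had 794, 723 and 782 CPM in HK2 KO cells at 24 h, against 991, 1043 and 1025 CPM with DMSO. It had 626, 687 and 789 CPM in PGP KO cells at 24 h, against 1092, 1118 and 1223 CPM with DMSO. WT cells gave 791, 985 and 765 CPM at 6 h and 773, 874 and 819 CPM at 24 h, against 1281, 1104 and 1187 CPM with DMSO. POMP was below its DMSO group in each treated library, and it was called in the 4 comparisons (edgeR adjusted p between 2.85e-05 and 0.00574). ADRM1, a ubiquitin receptor of the cap, was called lower at 24 h in HK2 KO (-0.60), PGP KO (-0.65) and WT cells (-0.56), and the WT call was lost without replicate 1 or 3 of the 24 h group or replicate 2 of the DMSO group (edgeR adjusted p = 0.0787, 0.0532 and 0.0663). UCHL5, the deubiquitinase that ADRM1 recruits, was called lower in HK2 KO cells (-1.0), PGP KO cells (-0.45) and WT cells at 24 h (-0.46). The WT call was lost without replicate 2 or 3 of the 24 h group or replicate 2 of the DMSO group (adjusted p = 0.123, 0.0979 and 0.0899), and the PGP KO call without replicate 3 of the 24 h group or replicate 1 of the DMSO group (edgeR adjusted p = 0.163 and 0.205). The gene called higher at 24 h in each genotype was ECPAS, a proteasome adaptor, at 0.33 in HK2 KO cells, 0.43 in PGP KO cells and 0.39 in WT cells. Its call was lost in 6 of 6 fits that left out a library in HK2 KO cells, in 3 of 6 in WT cells (without replicate 1 of the 24 h group or replicate 1 or 3 of the DMSO group) and in PGP KO cells without replicate 2 of the DMSO group, with edgeR adjusted p-values between 0.0502 and 0.14. SEM1, a small lid subunit, was called lower at 6 h (-0.79). The 6 h call of the ligase UBE3C (-0.36) was lost without replicate 1 or 3 of the 6 h group or replicate 1 or 2 of the DMSO group. The importer IPO9 was called lower at 24 h in PGP KO cells (-0.34) and WT cells (-0.33). Its PGP KO call was lost without replicate 1 of the 24 h group or replicate 2 or 3 of the DMSO group, and its WT call without replicate 1 or 2 of the 24 h group or replicate 2 or 3 of the DMSO group.

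NFE2L1, a transcription factor that raises proteasome genes when proteasome activity is short, was called higher in each comparison. It had 82.4, 92.4 and 80.7 CPM in HK2 KO cells at 24 h, against 44.9, 46.5 and 43.3 CPM with DMSO. It had 90.3, 85.1 and 85.5 CPM in PGP KO cells at 24 h, against 41.2, 42.1 and 44.3 CPM with DMSO. In WT cells it had 71.5, 53.5 and 91.1 CPM at 6 h and 83.8, 93.0 and 88.1 CPM at 24 h, against 39.7, 44.5 and 42.0 CPM with DMSO. No treated library overlapped its DMSO group (log2 fold change 0.92 ± 0.14 in HK2 KO cells, 1.03 ± 0.14 in PGP KO cells, and 0.78 ± 0.14 at 6 h and 1.07 ± 0.14 at 24 h in WT cells; edgeR adjusted p = 2e-05, 5.23e-06, 0.000239 and 2.69e-06). VCP, the ATPase that extracts it from the membrane, was -0.35 in HK2 KO cells, -0.47 in PGP KO cells, and -0.59 at 6 h and -0.34 at 24 h in WT cells, each called. DDI2, the protease that cleaves it, was called lower in PGP KO cells (-0.58) and in WT cells at 6 h (-0.44) and 24 h (-0.46), the 6 h call being lost without replicate 3 of the 6 h group or replicate 1 of the DMSO group (edgeR adjusted p = 0.081 and 0.0557). UFD1, a VCP cofactor, was called lower at 24 h in HK2 KO cells (-0.41), PGP KO cells (-0.75) and WT cells (-0.68), and the HK2 KO call was lost in each of the 6 fits that left out a library (edgeR adjusted p between 0.0508 and 0.0983). NFE2L2, the related factor of the antioxidant response, was called higher in PGP KO cells (0.61) and in WT cells at 6 h (0.44) and 24 h (0.56), the 6 h call being lost without replicate 1 or 3 of the 6 h group or replicate 1 or 2 of the DMSO group (edgeR adjusted p between 0.107 and 0.14). Over the 12 tested genes of this list, 1 was called higher and 2 lower in HK2 KO cells, 2 higher and 3 lower in PGP KO cells, and in WT cells 2 higher and 2 lower at 6 h and 2 higher and 3 lower at 24 h (edgeR). The share called in either direction was 25.0% in HK2 KO cells, 41.7% in PGP KO cells, and 33.3% at 6 h and 41.7% at 24 h in WT cells, against 29.4%, 31.5%, 22.0% and 29.8% of all genes tested. Of 7 tested ubiquitin genes, 0 were called higher in these comparisons and 1, UBA1, was called lower (edgeR). In WT cells at 24 h that is 14.3% of the list, near the 14.6% of all genes tested that were called lower there. In PGP KO cells 15.4% of all genes tested were called lower. UBA1, the main ubiquitin-activating enzyme, was called in PGP KO cells (-0.48) and in WT cells at 24 h (-0.53). The PGP KO call of UBA1 was lost without replicate 1 of the 24 h group (edgeR adjusted p = 0.0643).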

How the data were processed

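Messenger RNA of 21 MV4-11 libraries in 7 groups of 3 was measured as 3′ tags. Per the labels' protocols, RNA was prepared with the Qiagen RNeasy kit and libraries with the Lexogen QuantSeq 3′ kit; per the submitters' processing notes, bcl2fastq 2.20.0.422, HISAT2, HTSeq and hg19 were used. The deposited values are raw counts per Ensembl gene, not normalized. The strand setting and annotation release are not given in the sources used here. Symbols and overlaps came from GENCODE and upstream sequences from RefSeq, both on GRCh38, and no coordinates of the counts' build are given.

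The count test was edgeR 4.0.16 (under R 4.3.3, with limma 3.58.1): TMM factors, filterByExpr (minimum count 10, minimum total 15), and a quasi-likelihood fit in which each of the 7 groups has its own mean. The common biological coefficient of variation was 0.149. P-values were adjusted by Benjamini-Hochberg over 11610 genes and called under 0.05. Alternatives were RLE factors, library totals, no filter, DESeq2 1.42.0, a replicate block, the compared groups alone, and leaving out each library. The fit was tested on simulated data. Replicate numbers were taken to pair the PGP KO libraries only, where same-numbered deviations all correlated above 0.1 (0.243, 0.164 and 0.247). Some did so elsewhere: 0.164 and 0.347 for WT 6 h, 0.166 and 0.236 for WT 24 h and 0.121 in HK2 KO cells, each against DMSO. Between HK2 KO and WT cells with DMSO 0.205 and 0.161 did. The main fit has no replicate term, so any spread shared by replicate number stays in it. Tables and figures used Python 3.11.15, pandas 2.3.3, numpy 2.4.6 and matplotlib 3.10.9.

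The members and lists were chosen with earlier results of these data known. Values are given for the interferon-linked class, the catalytic subunits, PSME3, PSME4 and PSMF1, for the 2 called members of each other class with the smallest adjusted p in WT cells, and for up to 4 called genes of each list per comparison, with TAP1, IRF1, NFE2L1 and POMP always. PSMA5, PSMA6, PSMB4, PSMC1, PSMD4, PSMD6, PSMD9, PSMD11, PSMG3, PSMC3IP, PSME3IP1, HLA-B, TAPBP, JAK1, KRT8, MPO, PTPRC and the further comparisons of list genes were named after their values were seen. Some genes are not reported here and were left out of the lists before the counts were made.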

Additional observations from a re-analysis of the deposited data

How the results depend on the processing

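Over 198 named log2 fold changes, no called one changed sign under any alternative; 2084 alternative values kept direction and call, 232 lost a call, 38 gained one and 21, all of values not called, changed sign. For the number of members called, leaving out each library gave 11 to 17 at WT 6 h (14 with all), 20 to 23 at WT 24 h (26), 14 to 16 in HK2 KO cells (16), 19 to 21 in PGP KO cells (23) and 3 to 15 for WT 24 h against 6 h (6). Fitting the compared groups alone called 6 members at WT 6 h and 1 for 24 h against 6 h. Both fits use fewer libraries, hold the WT 6 h group and called fewer of all genes tested. The same kind of fit at 24 h against DMSO called 29 members in WT cells, 22 in HK2 KO cells and 25 in PGP KO cells. Of 10795 genes tested in WT cells, 1981 were called higher and 1987 lower. In HK2 KO cells 1876 and 1739 of 10801 were, and in PGP KO cells 1773 and 1829 of 10725. The 6 h calls of SEM1, UBE3C, DDI2, NFE2L2, TAP1, IRF1, IRF7 and TYK2, the HK2 KO call of TAP1, and the PGP KO calls of PSMB4 and JAK1 were lost in such fits too (edgeR adjusted p between 0.054 and 0.2). RLE factors, library totals, no filter and DESeq2 kept all counts within 1.5 times, and the comparisons with 0 calls had 0 in every alternative. With the replicate block the calls numbered 26 in PGP KO cells, 17 at WT 6 h, 28 at WT 24 h, 23 in HK2 KO cells and 10 for 24 h against 6 h. The block also raised the calls over all genes tested. They were 2108 higher and 1973 lower in PGP KO cells, 1497 and 1601 at WT 6 h, and 2028 and 1916 at WT 24 h. In HK2 KO cells they were 2047 and 1838, and for 24 h against 6 h 1323 and 1191. All 3 correlations behind this pairing passed 0.1 in PGP KO cells only.

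Under library totals the summed CPM moved beyond 1 SD in PGP KO cells with DMSO (20S alpha 1946, interferon-linked 629, other activators 273, 19S ATPases 899, 19S non-ATPases 2357, chaperones 303, constitutive 6733), WT cells with DMSO (20S alpha 2019), HK2 KO cells with DMSO (19S non-ATPases 2265) and WT cells at 24 h (19S non-ATPases 1833, constitutive 5448). Values near zero changed sign as follows, and the cause was not tested. PSME1 in PGP KO cells was 0.05 (0.0542) under library totals. PSMB6 at 6 h was -0.0007 with RLE, -0.0117 without the filter and -0.0044 in DESeq2. PSMF1 at WT 24 h was -0.0078 without the filter. Leaving out libraries gave -0.207 to 0.0214 for PSMB9 at 6 h, -0.0781 to 0.396 for PSMB9 in PGP KO cells, -0.0384 to 0.1308 for PSME1 at WT 24 h, -0.2013 to 0.0397 for PSME1 in PGP KO cells, -0.1175 to 0.0707 for PSMB6 at 6 h, -0.0835 to 0.1694 for PSMB7 at 6 h, -0.0304 to 0.1774 for PSMF1 at 6 h, -0.0686 to 0.0853 for PSMF1 at WT 24 h, and -0.0774 to 0.3367 for PSMC3 at 6 h. Depth limits PSMB10, PSMG2, PSMD9 and PSMC3IP most among the members.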
